A study of Homo sapiens with 9 samples.

Results

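The genes of Wnt signaling described here are 60 ligands, receptors, antagonists and feedback genes, chosen by name, and they were followed through 3 groups of MDA-MB435S cells. A gene was measured where at least 1 probe set of the array carried it and no other gene, and of several the one brightest on average stood for it. This gave 55 of the 60 genes, out of 19775 genes measured in the same way. WNT3 and FZD8 share each of their probe sets with a second gene, and WNT3A, PORCN and TCF7 had no probe set annotated to them here, so these 5 have no value. The 55 genes were read by 128 probe sets, 21 of them by 1 and the other 34 by up to 7.

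MDA-MB435S is a human metastatic melanoma line. RNA was read on Affymetrix U133 Plus 2.0 arrays from cells with an empty vector (EV cells), cells with the tumor suppressor WWOX (WWOX cells) and cells with a WWOX protein mutated in its first WW domain (WFPA cells), a change that disrupts binding to partner proteins. Each group had 3 arrays. WWOX and WFPA cells are stable clones made with the pDEST12.2 vector under a lentiviral protocol and selected with G418, and a difference between clones cannot be told apart from one of the construct. Nothing states that the 3 arrays came from separate cultures, so each p-value measures the spread between arrays, which may be technical. Groups follow the sample titles, MDA_EV(wox+), MDA_mut and MDA_wox5. The vector field of the labels conflicts with the titles, since it gives WT WWOX protein for the first and none for the last. WWOX itself had 5 probe sets. At that with the highest mean, the log2 expression was 8.74 to 9.26 on the EV arrays, 10.12 to 10.35 on the WFPA arrays and 10.34 to 10.83 on the WWOX arrays. At another, chosen after its values were seen, it was 4.44, 4.83 and 4.21 on the EV arrays, 7.68, 7.56 and 7.68 on the WFPA arrays and 8.46, 8.20 and 7.87 on the WWOX arrays. The arrays titled EV were thus the low ones at both, while the other 3 did not pass between WWOX cells and the mean of the others. At 1 of those 3, EV cells had the highest mean, 9.11, beside 8.87 for WWOX and 8.38 for WFPA cells, and WFPA cells stood at -0.73 from EV cells (limma adjusted p = 0.0433).

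Wnt proteins are secreted, lipid-modified ligands that bind Frizzled receptors. In the canonical branch the co-receptors LRP5 and LRP6 join them, Dishevelled proteins are engaged, and the complex of AXIN, APC and GSK3B no longer marks β-catenin for destruction, so that TCF/LEF factors switch on targets such as AXIN2. In the non-canonical branches, ligands such as WNT5A act through ROR and RYK receptors on cell polarity or calcium signaling, and in melanoma WNT5A is known for its part in invasion.

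All values are log2 expression, and a difference of 1 on this scale is 2-fold. A gene was called where the limma adjusted p was under 0.05 and the change at least 2-fold. A gene that met the first condition alone is given as having passed under 2-fold. Intervals are 95% intervals of the single difference, not adjusted for the number of genes. Signals of different probe sets depend on the probes and are not compared with each other. The lower quartile of an array lay between 4.23 and 4.34 and its median between 6.03 and 6.05. Below the lower quartile the size of a change is uncertain, as no background level is given.

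The promoters of 3 genes that differed between the groups are shown from RefSeq (GRCh38.p14), each as the 250 bases before a transcription start, because they differ in the letters that TCF/LEF factors are known to bind. WNT5A is the ligand with the largest difference, and DKK1 and RNF43 encode inhibitors known as targets of the pathway. The core CTTTGA or CTTTGT was searched on both strands and is in capitals.
WNT5A upstream start, chr3:55487307-55487556, minus strand: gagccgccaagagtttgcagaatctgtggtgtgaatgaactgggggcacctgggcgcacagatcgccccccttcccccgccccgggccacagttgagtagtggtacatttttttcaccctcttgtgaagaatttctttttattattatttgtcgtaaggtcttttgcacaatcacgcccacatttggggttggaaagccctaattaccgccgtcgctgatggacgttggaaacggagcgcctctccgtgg
WNT5A downstream start, chr3:55481399-55481648, minus strand: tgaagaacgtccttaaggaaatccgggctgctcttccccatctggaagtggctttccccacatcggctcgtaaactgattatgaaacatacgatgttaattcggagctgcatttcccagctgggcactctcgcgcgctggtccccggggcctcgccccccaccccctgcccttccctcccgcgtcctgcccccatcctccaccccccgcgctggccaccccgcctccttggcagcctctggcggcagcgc
DKK1, chr10:52314031-52314280, plus strand: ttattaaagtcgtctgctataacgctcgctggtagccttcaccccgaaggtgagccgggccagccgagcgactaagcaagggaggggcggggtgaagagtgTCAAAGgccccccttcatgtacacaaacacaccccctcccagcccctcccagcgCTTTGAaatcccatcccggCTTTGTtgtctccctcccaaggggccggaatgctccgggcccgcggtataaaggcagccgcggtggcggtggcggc
RNF43 upstream start, chr17:58417535-58417784, minus strand: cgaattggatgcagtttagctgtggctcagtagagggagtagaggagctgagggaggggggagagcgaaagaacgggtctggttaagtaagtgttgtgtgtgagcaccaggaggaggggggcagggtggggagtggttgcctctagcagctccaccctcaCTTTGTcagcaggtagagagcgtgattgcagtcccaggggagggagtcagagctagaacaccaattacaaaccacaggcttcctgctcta
RNF43 downstream start, chr17:58402722-58402971, minus strand: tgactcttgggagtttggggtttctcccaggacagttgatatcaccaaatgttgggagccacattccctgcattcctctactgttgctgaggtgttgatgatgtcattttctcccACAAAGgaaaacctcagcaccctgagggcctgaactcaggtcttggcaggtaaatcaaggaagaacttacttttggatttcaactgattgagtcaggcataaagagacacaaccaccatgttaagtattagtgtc
DKK1 had 3 cores in its window, each of the RNF43 windows had 1, and neither WNT5A window had any. A core was found in 22.8% of all 35116 RefSeq windows and in 7 of the 43 windows of measured Wnt genes. Counted by gene, 6 of the 36 measured Wnt genes with a window (16.7%) held a core in at least 1 window. These were DKK1, FZD1, RNF43, ROR2, TCF7L2 and WNT8B. A match is a description of the letters and not of binding. The 3 genes were picked for this contrast, and a link with their expression was not tested. LRP4, WNT10B, AXIN2 and SFRP1 had no window in the table.

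Few of the Wnt genes differed by 2-fold or more between the groups. The comparison with the mean of EV and WFPA cells called 2 genes, LRP4 (higher in WWOX cells) and WNT5A (lower), which is 3.64% of the 55, against 4.01% of all genes. Against EV cells alone WWOX cells had 1 called gene, LRP4 (1.82%, against 3.90% of all genes). Against WFPA cells they had 2, again LRP4 and WNT5A (3.64%, against 4.73%). WFPA cells against EV cells had 3, with WNT5A higher and WNT10B and LRP4 lower (5.45%, against 2.23%). These comparisons share their samples, so their counts are not independent. With no fold limit, 10, 8, 10 and 6 Wnt genes passed in the same order. As shares these were 18.2%, 14.5%, 18.2% and 10.9%, against 20.3%, 14.8%, 20.4% and 8.62% of all genes. The median difference of the 55 genes between WWOX cells and the mean of the other groups was 0.08, and that of all genes was 0.04. In all, 13 Wnt genes passed in at least 1 comparison and 42 in none. The differences of those 42 ran from -0.52 to 0.70. The share of all genes that passed in at least 1 comparison was not counted. These totals, and those by role below, therefore have no such share beside them.

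**Figure D1:**
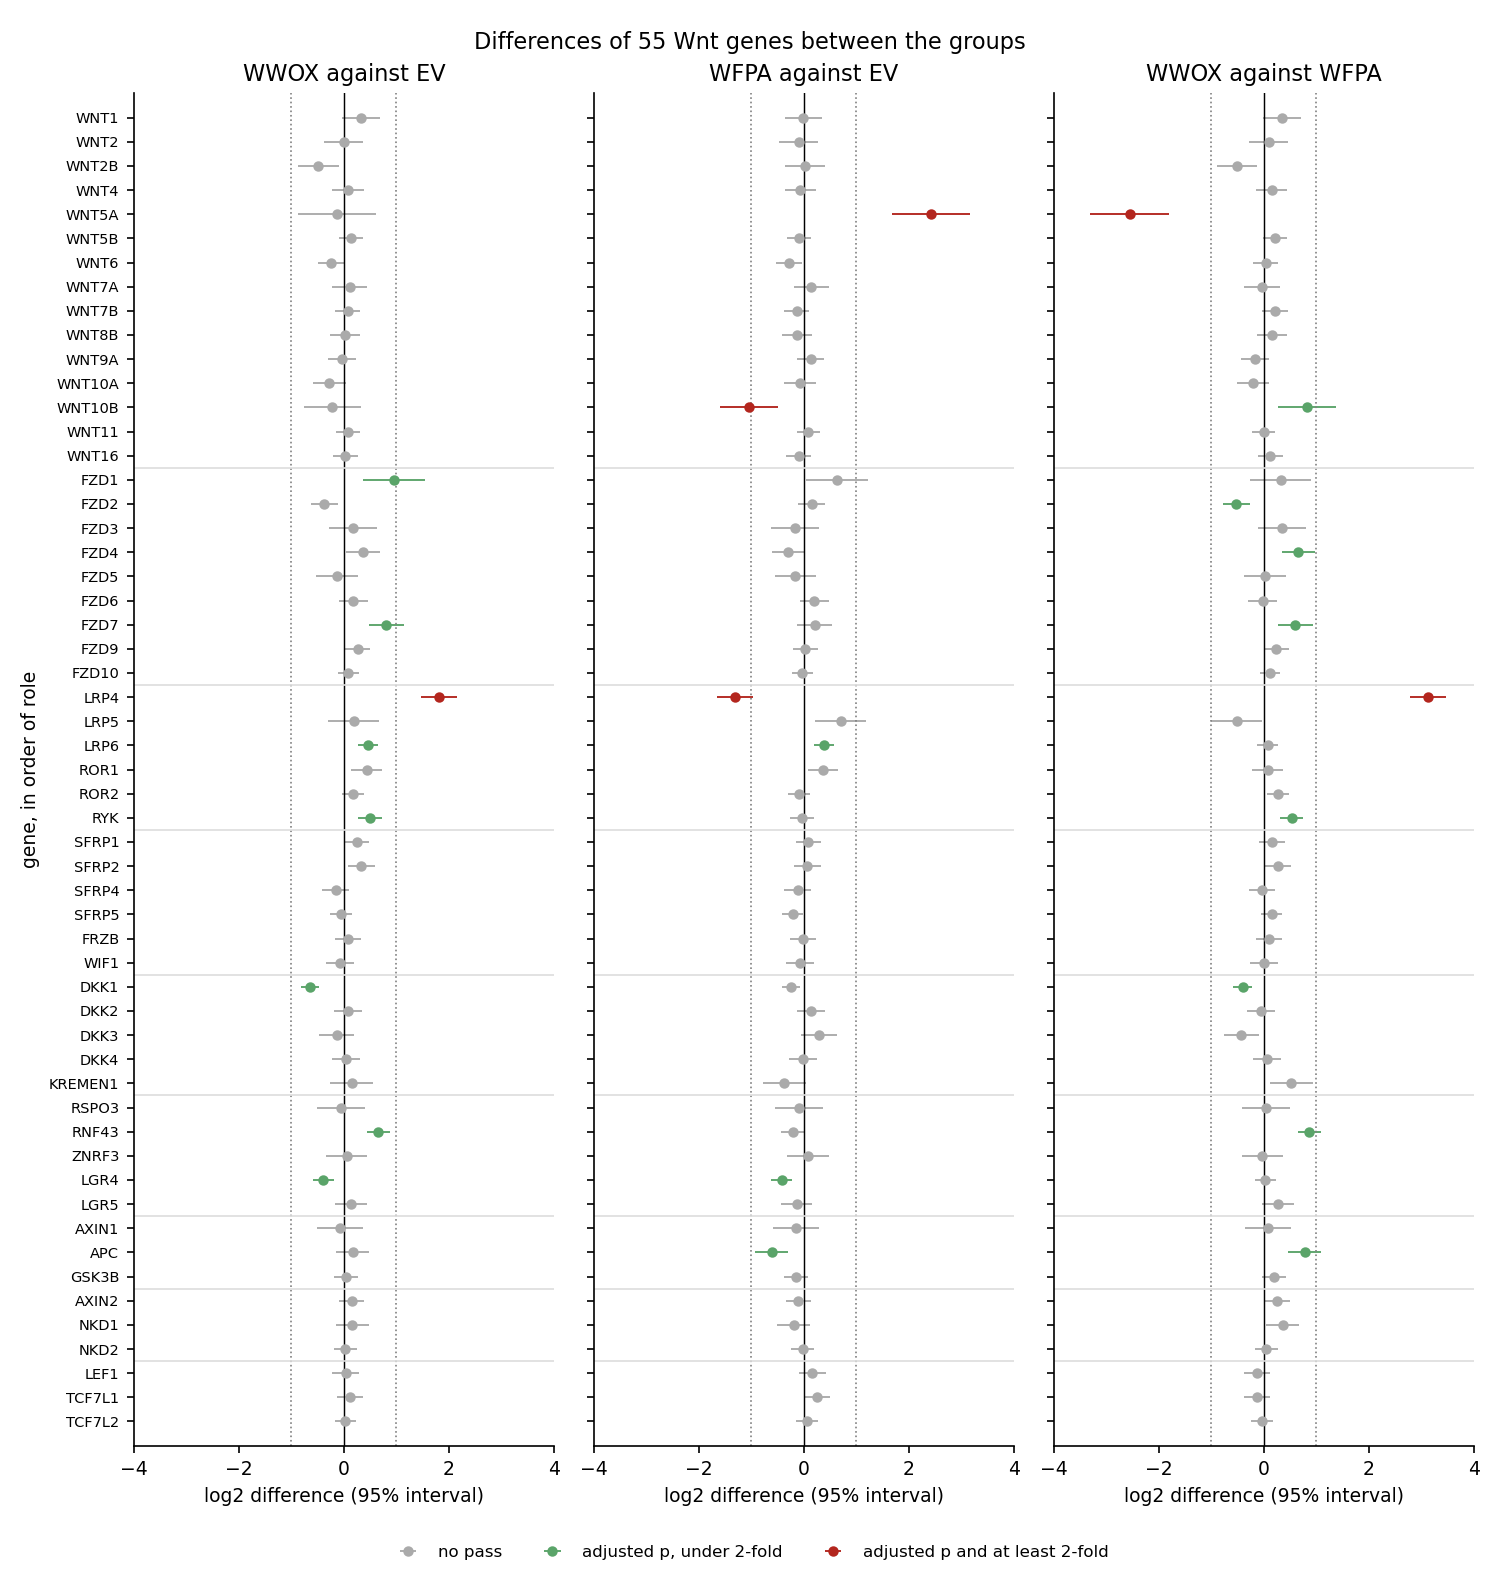
Difference in log2 expression (x axis, bars are 95% intervals) of the 55 measured Wnt genes (y axis, ordered by role) for WWOX against EV cells, WFPA against EV cells and WWOX against WFPA cells, 3 arrays a group. Dotted lines mark 2-fold; LRP4 lies beyond them in each panel, WNT5A in the panels that involve WFPA cells and WNT10B in WFPA against EV cells, and most other genes lie near 0.

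Among the ligands, WNT5A was higher in WFPA cells than in both other groups, though its mean there, 5.93, lay under the array median. Its log2 expression was 3.88, 3.59 and 3.03 on the EV arrays, 5.48, 6.76 and 5.54 on the WFPA arrays and 3.41, 3.38 and 3.31 on the WWOX arrays. Every WFPA array lay above all others, while EV and WWOX arrays overlapped and lay under the lower quartile. WFPA cells lay above EV cells by 2.43 (standard error 0.331, 5.38-fold, limma adjusted p = 0.00312). Between WWOX and WFPA cells the difference was -2.56 (standard error 0.331, limma adjusted p = 9.81e-04). Between WWOX and EV cells the difference was -0.13, with an interval from -0.88 to 0.62. The call of WWOX cells against the mean of the others (-1.34, limma adjusted p = 0.0127) therefore rested on the WFPA arrays, and with EV and WFPA arrays as 1 group the adjusted p was 0.267. At the second WNT5A probe set, which lay under the lower quartile on all arrays, WFPA cells were above EV cells by 0.49 (limma adjusted p = 0.0714).

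WNT10B, a ligand of the canonical branch, showed the reverse order. Its values were 7.02, 7.03 and 7.92 on the EV arrays, 6.40, 6.20 and 6.25 on the WFPA arrays and 7.23, 6.77 and 7.33 on the WWOX arrays. The WFPA arrays lay below all others, and the EV and WWOX arrays overlapped. The difference of WFPA from EV cells was -1.04 (standard error 0.243, limma adjusted p = 0.0366), with EV replicate 3 apart from the other EV arrays. Without EV replicate 3 the difference was -0.74 with an adjusted p of 0.0518. Without EV replicate 1 the adjusted p was 0.0502, and without any 1 of the WFPA arrays it was 0.0872 to 0.123. WWOX cells were above WFPA cells by 0.83 and passed under 2-fold (limma adjusted p = 0.0488).

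The other 13 ligands did not pass in any comparison at the probe set used. WNT10A passed lower in WWOX cells at its other probe set, under 2-fold. There it stood at -0.29 from the mean of the others and -0.36 from EV cells (limma adjusted p = 0.0443 and 0.0398). At the WNT10A probe set used the differences were -0.24 and -0.28. WNT2B, a ligand whose probe set had the highest mean in this role, read 7.22, 7.83 and 7.54 in EV cells, 7.79, 7.60 and 7.26 in WFPA cells and 7.01, 7.07 and 7.05 in WWOX cells. Its WWOX arrays lay below all others, at -0.50 from the mean of EV and WFPA cells (limma adjusted p = 0.0509). At another WNT2B probe set the values were 4.20, 4.13 and 4.36 in EV cells, 5.40, 4.95 and 5.42 in WFPA cells and 4.05, 4.16 and 4.87 in WWOX cells. There WFPA cells were above EV cells by 1.03 (limma adjusted p = 0.0241), so that the probe sets of this gene differ in what they show. WNT2 lay under the lower quartile on all 9 arrays, at 3.48 to 4.11. WNT1 (4.28 ± 0.187 in EV cells), WNT4 (5.41 ± 0.116), WNT7A (5.33 ± 0.108), WNT11 (5.61 ± 0.139) and WNT16 (6.67 ± 0.0947, SD, n = 3 each) differed by at most 0.34 between any groups.

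Of 9 measured Frizzled receptors none was called, and 4 passed under 2-fold in some comparison. FZD7, a receptor of the canonical branch, read 9.45, 9.80 and 9.87 on the EV arrays, 9.95, 9.99 and 9.81 on the WFPA arrays and 10.71, 10.56 and 10.27 on the WWOX arrays. The WWOX arrays lay above all others. The difference from the mean of EV and WFPA cells was 0.70 (standard error 0.127, limma adjusted p = 0.00575). At the other FZD7 probe set it was 0.38 with an adjusted p of 0.223. FZD4, which also binds the non-Wnt ligand norrin, was above WFPA cells by 0.66 in WWOX cells (limma adjusted p = 0.0128) and read 8.84 to 9.32 on the WWOX arrays against 8.39 to 8.63 on the WFPA arrays. FZD2 went the other way. Its values were 8.59, 8.32 and 8.29 in EV cells, 8.57, 8.60 and 8.49 in WFPA cells and 8.16, 7.87 and 8.04 in WWOX cells, -0.45 from the mean of the others (limma adjusted p = 0.0139). The second probe sets of FZD4 and FZD2 did not pass in the same comparisons (limma adjusted p = 0.856 and 0.71). FZD1 read 5.99, 5.38 and 5.01 in EV cells and 6.68, 6.59 and 5.97 in WWOX cells, which overlap by a narrow margin. The difference was 0.95 (standard error 0.261, limma adjusted p = 0.0457), just under 2-fold. FZD1 was called without EV replicate 1 or without WWOX replicate 3. WFPA cells, with a mean of 6.10, stood 0.64 above EV cells without passing (limma adjusted p = 0.221). At the other FZD1 probe sets the difference of WWOX from EV cells was 0.12 and -0.16, with no pass (limma adjusted p = 0.764 and 0.331). FZD3, FZD5, FZD6, FZD9 and FZD10 did not pass, and FZD10 lay under the lower quartile on all arrays (2.29 to 2.59).

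**Figure D2:**
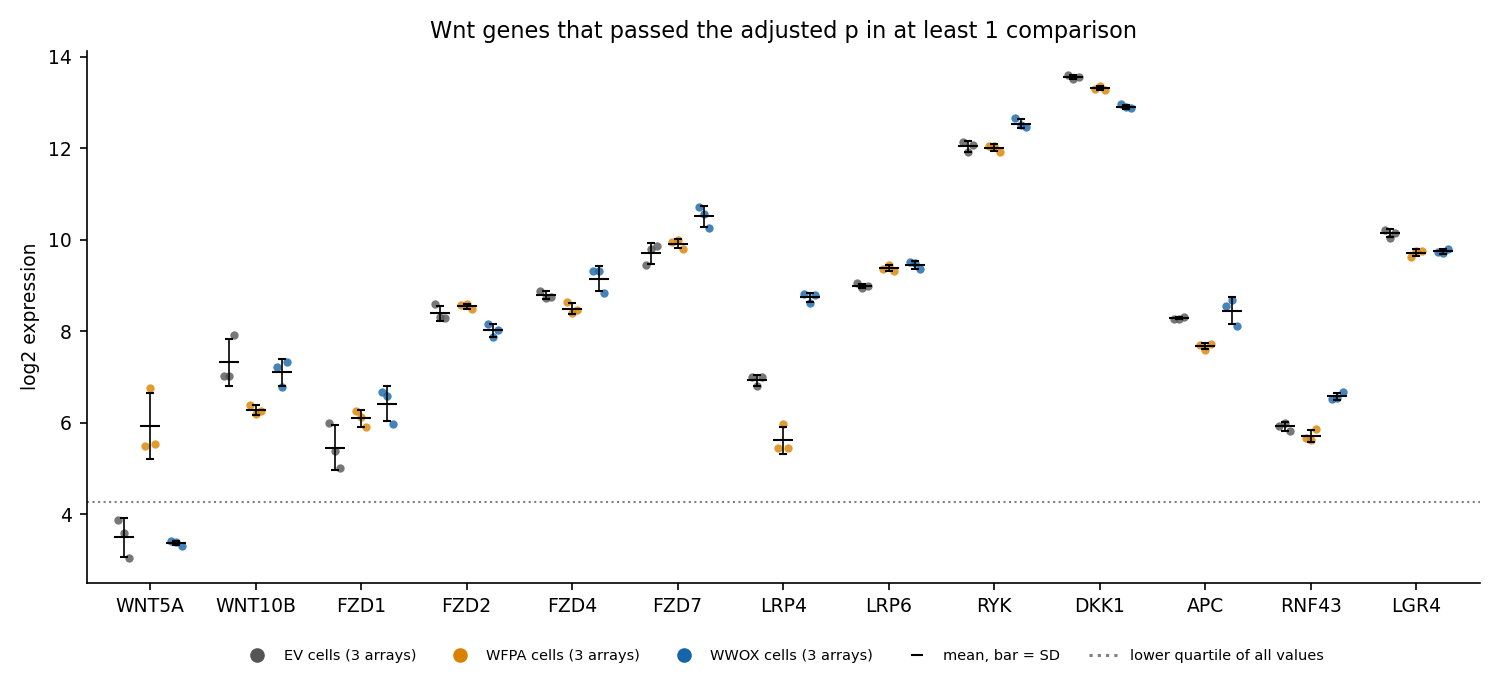
Log2 expression (y axis) on each array of the 13 Wnt genes that passed the adjusted p in at least 1 comparison, by group, with the mean and SD of 3 arrays and the lower quartile of all values as a dotted line. LRP4 has 3 separate levels, from 5.62 in WFPA to 8.74 in WWOX cells, WNT5A is above the dotted line in WFPA cells alone, and DKK1 steps down from 13.56 to 12.91.

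LRP4 showed the largest difference of the 55 genes at the probe sets used. It encodes a receptor of the LDL receptor family that binds agrin at the nerve-muscle junction and the Wnt inhibitors sclerostin and DKK1. Its log2 expression was 7.0, 6.80 and 7.0 on the EV arrays, 5.44, 5.96 and 5.44 on the WFPA arrays and 8.81, 8.62 and 8.80 on the WWOX arrays. The groups did not overlap at any point. WWOX cells were above EV cells by 1.81 (standard error 0.149, 3.51-fold, limma adjusted p = 7.51e-05). They were above WFPA cells by 3.13 (standard error 0.149, 8.73-fold, limma adjusted p = 2.64e-06). WFPA cells themselves stood at -1.31 from EV cells (standard error 0.149, limma adjusted p = 0.00115), so the groups with wild-type and mutant WWOX lay on opposite sides of EV cells. LRP4 was read by 1 probe set, so no second reading bears on it. EV replicates 1 and 3 carried the identical value 6.99704, and WFPA replicates 1 and 3 the identical value 5.44399. What these ties mean for the standard errors was not tested.

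The canonical co-receptors differed less. LRP6 stood at 9.0 ± 0.0498 on EV arrays, 9.38 ± 0.0706 on WFPA arrays and 9.45 ± 0.0864 on WWOX arrays (SD, n = 3 each). Both clones lay above all EV arrays, by 0.38 (limma adjusted p = 0.0312) and 0.46 (limma adjusted p = 0.00909), and their own difference was 0.07, with an interval from -0.12 to 0.27. Neither of the other LRP6 probe sets passed. At these, WFPA cells stood 0.43 above EV cells at both, and WWOX cells at 0.12 and -0.35 from EV cells. LRP5 read 7.30, 7.01 and 7.07 in EV cells, 8.05, 7.61 and 7.83 in WFPA cells and 6.86, 7.32 and 7.75 in WWOX cells. The WFPA arrays were above the EV arrays by 0.70, without passing (limma adjusted p = 0.0955).

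RYK, a receptor of the non-canonical branch, read 12.15, 11.91 and 12.08 in EV cells, 12.05, 12.06 and 11.93 in WFPA cells and 12.66, 12.50 and 12.47 in WWOX cells. The WWOX arrays lay above all others, by 0.51 from their mean (standard error 0.0848, 1.43-fold, limma adjusted p = 0.00364). The other RYK probe sets gave 0.65 and 0.50 (limma adjusted p = 0.00156 and 0.0169), so its 3 probe sets all passed under 2-fold. ROR1, which binds WNT5A, had a mean of 7.23 (SD 0.0471) for EV, 7.59 (SD 0.0842) for WFPA and 7.66 (SD 0.258) for WWOX, n = 3 each. Neither clone passed against EV cells (limma adjusted p = 0.151 for WFPA and 0.0622 for WWOX). The clones differed from each other by 0.07 (limma adjusted p = 0.744). At the other ROR1 probe sets WFPA cells had the highest mean, 7.38 and 6.59. There WWOX cells stood at -0.36 and -0.38 from WFPA cells, without passing (limma adjusted p = 0.170 and 0.228). ROR2, a relative of ROR1, lay under the lower quartile on all arrays (3.08 to 3.52).

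The secreted antagonists that bind Wnt ligands did not pass at the probe sets used, but SFRP1 had a second reading that differs. SFRP1, the first of the secreted Frizzled-related proteins, read 6.18, 6.29 and 6.21 in EV cells, 6.31 on each WFPA array and 6.63, 6.25 and 6.53 in WWOX cells at its highest probe set, 0.20 above the mean of the others (limma adjusted p = 0.179). At another probe set it read 5.05 on each EV array, 3.69, 3.78 and 4.36 on the WFPA arrays and 9.04, 8.99 and 8.51 on the WWOX arrays. There WWOX cells were above EV cells by 3.80 (standard error 0.194, limma adjusted p = 4.03e-06) and above WFPA cells by 4.90 (limma adjusted p = 1.05e-06), while WFPA cells stood at -1.10 from EV cells (limma adjusted p = 0.0105), from levels near or under the lower quartile. The remaining pair of SFRP1 probe sets did not pass, with differences of 0.23 and 0.08 between WWOX cells and the mean of the others. Which probe set follows the SFRP1 transcript was not tested. Values that are identical on all 3 arrays of a group, as here, occurred at 355 probe sets for EV, 291 for WFPA and 163 for WWOX, out of 54613. SFRP2, SFRP4, SFRP5, FRZB and WIF1 differed by at most 0.33 between any groups.

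**Figure D3:**
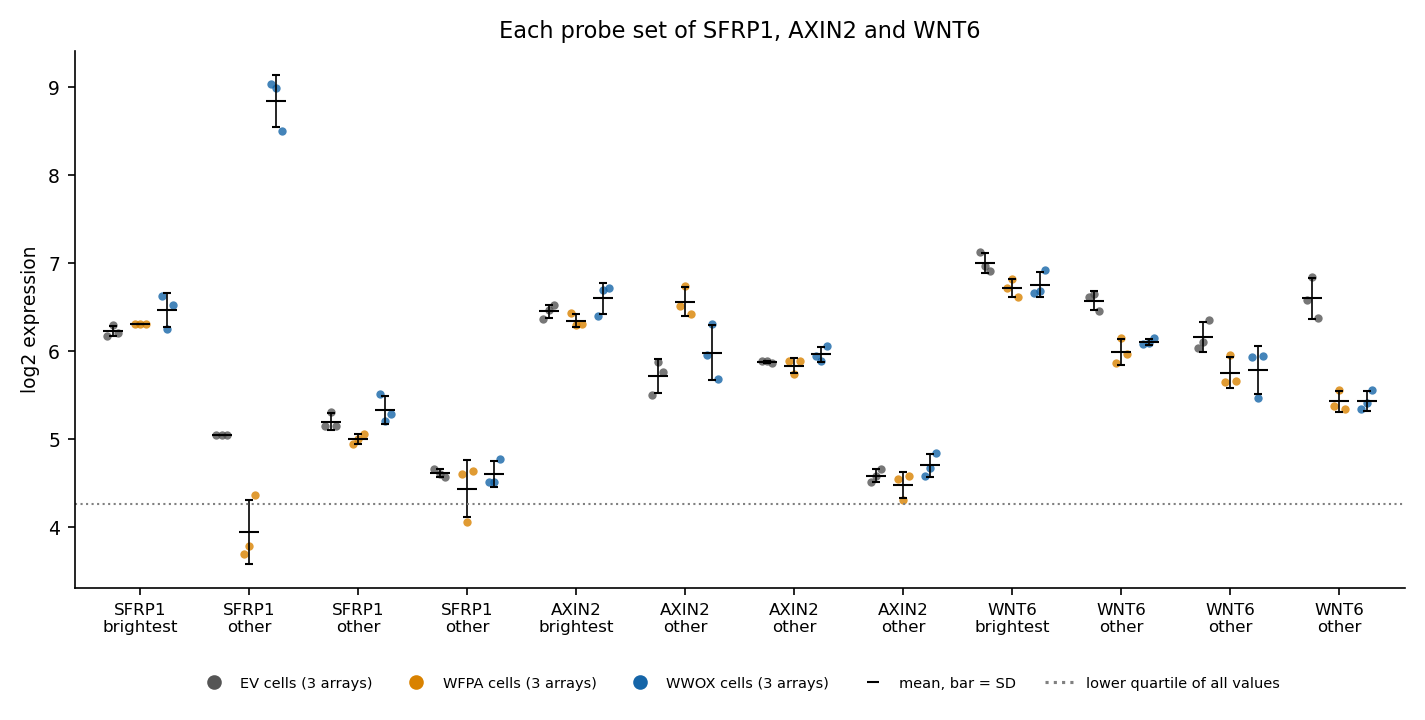
Log2 expression (y axis) on each array at each probe set of SFRP1, AXIN2 and WNT6, by group, with the mean and SD of 3 arrays; the leftmost of each gene is that with the highest mean. A second SFRP1 probe set stands at 8.85 in WWOX cells against 5.05 and 3.95 in EV and WFPA cells, while the other 3 SFRP1 probe sets show no such step.

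DKK1, which blocks LRP5 and LRP6, fell in WWOX cells by a small and even step. It read 13.61, 13.51 and 13.56 in EV cells, 13.31, 13.36 and 13.28 in WFPA cells and 12.96, 12.89 and 12.88 in WWOX cells. The groups did not overlap, and WWOX cells stood at -0.52 from the mean of the others (standard error 0.0675, 1.44-fold, limma adjusted p = 9.57e-04), which is under 2-fold. Against WFPA cells the difference was -0.40 (limma adjusted p = 0.00806), and that of WFPA from EV cells was -0.24 (limma adjusted p = 0.115). DKK3, a divergent member of the family, stood at 11.38 ± 0.11 on EV arrays, 11.67 ± 0.0436 on WFPA arrays and 11.24 ± 0.318 on WWOX arrays (SD, n = 3 each) and did not pass. At another of its 6 probe sets WWOX cells stood at -0.54 from the mean of the others (limma adjusted p = 8.90e-04). DKK2 (3.01 to 3.42), DKK4 (6.03 to 6.44) and KREMEN1, a receptor of DKK1 (6.36 to 7.25), did not pass at the probe sets used.

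The genes that set how many Frizzled receptors stay at the cell surface moved in part. RNF43 is a ubiquitin ligase that removes Frizzled proteins from the surface. It read 5.94, 6.01 and 5.82 in EV cells, 5.67, 5.62 and 5.86 in WFPA cells and 6.53, 6.55 and 6.66 in WWOX cells. The WWOX arrays lay above all others, by 0.76 from their mean (standard error 0.0845, 1.70-fold, limma adjusted p = 3.94e-04), and its relative ZNRF3 differed by 0.01 (interval from -0.33 to 0.35). LGR4, a receptor of R-spondins, stood at 10.14 ± 0.0881 on EV arrays, 9.72 ± 0.0744 on WFPA arrays and 9.75 ± 0.0465 on WWOX arrays (SD, n = 3 each). Both clones lay below all EV arrays, with differences of -0.42 (limma adjusted p = 0.021) and -0.39 (limma adjusted p = 0.019). Its other probe sets did not pass. LGR5 and the R-spondin RSPO3 lay under the lower quartile on all arrays, at 2.61 to 3.23 and 2.30 to 3.15.

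Inside the cell, APC was lower in WFPA cells at the probe set used, which is 1 of its 5. It read 8.28, 8.27 and 8.31 in EV cells, 7.71, 7.59 and 7.72 in WFPA cells and 8.56, 8.68 and 8.12 in WWOX cells. The WFPA arrays lay below all others, at -0.61 from EV cells (limma adjusted p = 0.0315) and with WWOX cells 0.78 above them (limma adjusted p = 0.00511). GSK3B was 11.39 ± 0.10, 11.25 ± 0.104 and 11.44 ± 0.108 in EV, WFPA and WWOX cells (SD, n = 3 each), and AXIN1 6.99 ± 0.222, 6.84 ± 0.348 and 6.92 ± 0.216. Neither passed at the probe set used. The transcription factors LEF1 and TCF7L2 differed by at most 0.16 between groups at the probe sets used. LEF1 was 11.86 ± 0.0513, 12.02 ± 0.0951 and 11.89 ± 0.197 in EV, WFPA and WWOX cells (SD, n = 3 each). TCF7L2 was 10.98 ± 0.0299, 11.05 ± 0.0385 and 11.01 ± 0.137. LEF1 has 3 probe sets and TCF7L2 has 7, and their other readings are not given here. TCF7L1 differed by at most 0.25.

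AXIN2, a feedback inhibitor widely read as a target of β-catenin, did not pass at its highest probe set. It read 6.37, 6.47 and 6.52 in EV cells, 6.43, 6.30 and 6.31 in WFPA cells and 6.40, 6.69 and 6.71 in WWOX cells. The groups overlapped, with WWOX cells 0.20 above the mean of the others (interval from -0.01 to 0.41, limma adjusted p = 0.18). At a second AXIN2 probe set it read 5.50, 5.88 and 5.77 in EV cells, 6.52, 6.74 and 6.42 in WFPA cells and 5.96, 6.31 and 5.68 in WWOX cells. There the WFPA arrays lay above all others, by 0.85 from EV cells (standard error 0.172, limma adjusted p = 0.0207, under 2-fold). The remaining pair did not pass. NKD1 and NKD2, which bind Dishevelled, were 7.15 ± 0.227 and 6.21 ± 0.086 in EV cells (SD, n = 3 each). At the probe sets used they differed by at most 0.36 and 0.05 between groups.

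Over all 128 probe sets of the Wnt genes, 3, 3, 3 and 6 were called in the same order of comparisons. These are 2.34%, 2.34%, 2.34% and 4.69%, against 3.67%, 3.68%, 4.52% and 1.95% of all 41091 probe sets with 1 gene. The WNT6 probe sets show how far readings of 1 gene can part. At the highest, WNT6 stood at 7.0 ± 0.11 on EV arrays, 6.72 ± 0.0994 on WFPA arrays and 6.76 ± 0.142 on WWOX arrays (SD, n = 3 each), with no pass. At another it was 6.60 ± 0.234, 5.43 ± 0.117 and 5.44 ± 0.114 (SD, n = 3 each). There both clones were called lower than EV cells, with differences of -1.17 and -1.16 (limma adjusted p = 0.00109 and 5.53e-04), and 1 of the other 2 passed lower in both under 2-fold.

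Further genes of the pathway were taken from a list of 150 in 6 groups, of which 145 were measured. The list was written with earlier results of these data known. Its shares, here and by group below, therefore do not test the pathway against all genes. In WWOX cells 7 rose and 4 fell against the mean of the others (7.59%, beside the 4.01% of all genes). Against EV cells 6 rose and 5 fell (7.59%, beside 3.90%), against WFPA cells 8 rose and 3 fell (7.59%, beside 4.73%), and between WFPA and EV cells 2 were higher and 2 lower in WFPA cells (2.76%, beside 2.23%). Their median difference from the mean of the others was 0.07 in WWOX cells. No further ligand, receptor or secreted modulator among 21 was called in any comparison, beside 2.23% to 4.73% of all genes.

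Dishevelled proteins pass the signal from Frizzled, and none of their genes was called. DVL2 read 11.49, 11.49 and 11.38 in EV cells, 11.41, 11.41 and 11.38 in WFPA cells and 11.69, 11.60 and 11.66 in WWOX cells. Its WWOX arrays lay above all others, by 0.22 from their mean (interval from 0.07 to 0.37), without passing (limma adjusted p = 0.059). DVL1 stood at -0.52 from EV cells in WWOX cells (limma adjusted p = 0.014) and DVL3 above them by 0.41 (limma adjusted p = 0.0402), both under 2-fold. CTNNB1, which encodes β-catenin, was 12.07 ± 0.161, 12.22 ± 0.16 and 12.50 ± 0.18 in EV, WFPA and WWOX cells (SD, n = 3 each; limma adjusted p = 0.0643 for WWOX cells against the mean of the others). DACT1, which binds Dishevelled, was the 1 called gene among 28 Dishevelled and cytoplasmic genes. It was called in WWOX cells against the mean of the others, in WWOX against WFPA cells and in WFPA against EV cells. Of all genes, 4.01%, 4.73% and 2.23% were called in these comparisons. DACT1 read 9.84, 9.63 and 9.29 in EV cells, 7.50, 7.89 and 7.51 in WFPA cells and 10.19, 10.32 and 9.39 in WWOX cells. The WFPA arrays lay below all others, at -1.95 from EV cells (standard error 0.248, limma adjusted p = 0.00216), and EV and WWOX arrays overlapped.

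Called differences were also found in the non-canonical branches. DAAM2, a formin that links Dishevelled to the actin cytoskeleton, read 7.21, 6.60 and 7.60 in EV cells, 8.02, 8.04 and 7.64 in WFPA cells and 11.50, 11.46 and 11.48 in WWOX cells. The WWOX arrays stood above all others by 3.96 from their mean (standard error 0.194, 15.6-fold, limma adjusted p = 2.53e-06). It was the 1 gene of 22 in planar cell polarity called in that comparison, beside 4.01% of all genes. Of 17 measured genes of the Wnt/calcium branch, 2 rose and 1 fell against the mean of the others, where 4.01% of all genes were called. NFATC2, a transcription factor released by calcineurin, read 6.54, 5.78 and 6.02 in EV cells, 7.38, 7.61 and 7.39 in WFPA cells and 10.68, 10.84 and 10.45 in WWOX cells. The groups did not overlap, and both steps were called, at 1.35 from EV to WFPA cells (limma adjusted p = 0.0036) and 3.20 from WFPA to WWOX cells (limma adjusted p = 8.98e-06). Of the phospholipases C, which start calcium release, PLCB4 fell by 2.80 (standard error 0.176, limma adjusted p = 1.15e-05), to 3.75, 3.70 and 3.73 in WWOX cells, under the lower quartile. PLCB1 rose by 1.15 (limma adjusted p = 5.25e-04).

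**Figure D4:**
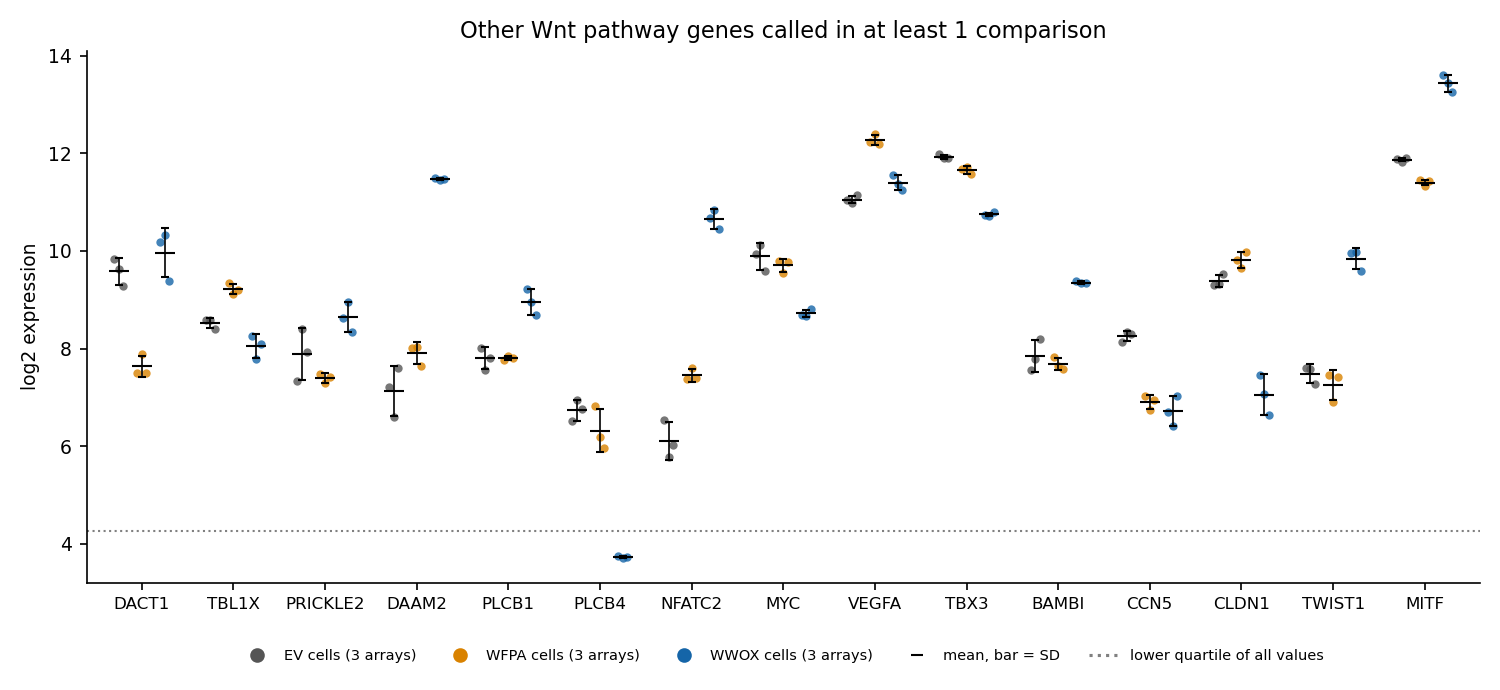
Log2 expression (y axis) on each array of the further Wnt pathway genes called in at least 1 comparison, by group, with the mean and SD of 3 arrays and the lower quartile of all values as a dotted line. DAAM2 stands at 11.48 and NFATC2 at 10.65 in WWOX cells against 7.13 and 6.11 in EV cells, and PLCB4 drops to 3.73.

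Of 34 measured target genes, 3 rose and 3 fell in WWOX cells against the mean of the others, where 4.01% of all genes were called. TWIST1, a transcription factor of mesenchymal cells, rose by 2.47 and BAMBI, a decoy receptor of the TGFβ family, by 1.59 (limma adjusted p = 1.05e-05 and 6.18e-05). MITF, the regulator of the melanocyte lineage, rose by 1.80. The EV arrays stood at 11.87 ± 0.0372, the WFPA arrays at 11.40 ± 0.0606 and the WWOX arrays at 13.43 ± 0.17 (SD, n = 3 each; limma adjusted p = 2.43e-06). CLDN1, a tight junction protein, fell by 2.54, MYC by 1.08 and the transcription factor TBX3 by 1.05 (limma adjusted p = 1.45e-05, 4.58e-04 and 1.68e-05). CCND1, the cyclin D1 gene, was 12.90 ± 0.0247, 12.60 ± 0.0874 and 12.70 ± 0.031 in EV, WFPA and WWOX cells (SD, n = 3 each) and did not pass. In WFPA against EV cells VEGFA was higher by 1.22 (limma adjusted p = 2.62e-04) and CCN5 lower, at -1.36 (limma adjusted p = 0.00118). CCN5 was also lower in WWOX than in EV cells, at -1.54 (limma adjusted p = 2.68e-04).

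MITF also stands in the list of melanocytic markers, of which 9 were measured. Against the mean of the others 4 of these rose in WWOX cells (MITF, SOX10, S100B and GPM6B), where 4.01% of all genes were called. The pigment genes PMEL, MLANA, TYR and TYRP1 did not pass. They stood at 5.80, 4.38, 5.46 and 2.26 in EV cells, at or under the array median. TRPM1 did not pass either, at 0.27 from the mean of the others (limma adjusted p = 0.239). The summed level of the list was 50.5 to 51.2 on the EV arrays, 52.0 to 52.9 on the WFPA arrays and 68.9 to 70.6 on the WWOX arrays. The part of this difference in the Wnt results was not tested. Markers of other cell types differed as well in this comparison, and their counts also stand beside the 4.01% of all genes. Of 8 fibroblast genes 3 rose (COL1A2, LUM and FAP), and the sum of the list was 40.9 to 42.6 on EV, 43.0 to 43.7 on WFPA and 49.5 to 49.9 on WWOX arrays. Of 8 epithelial genes 1 rose (ESRP1) and 3 fell (CDH1, KRT8 and KRT18), with sums of 57.3 to 59.4, 61.0 to 61.9 and 59.5 to 60.0. CDH1 was high in WFPA cells, with means of 4.67, 7.78 and 4.54 in EV, WFPA and WWOX cells, and was not called between WWOX and EV cells (limma adjusted p = 0.696). Of 6 haematopoietic genes 1 fell (PTPRC), with sums of 35.0 to 35.8, 33.3 to 33.9 and 30.9 to 32.3. Of 6 endothelial genes none was called, with sums of 31.2 to 32.2, 31.1 to 31.9 and 32.4 to 33.1. The part of these in the Wnt results was not tested either.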

How the data were processed

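Total RNA of MDA-MB435S cells was hybridized to 9 Affymetrix U133 Plus 2.0 arrays, 3 each for EV, WFPA and WWOX. The deposited table, made by the authors with Partek Genomics Suite 6.5, holds log2 intensities per probe set. The background and normalization method is not given in the sources used here, and no further normalization was applied. Of 54675 probe sets, 62 array controls were left out and 54613 tested.

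Group means were fitted by limma 3.58.1 in R 4.3.3, with 6 residual degrees of freedom, and p-values were adjusted by Benjamini-Hochberg over all probe sets. A call needed an adjusted p under 0.05 and at least 2-fold; the methods' limit of 4-fold was an alternative. Named genes were those called, the one with the highest mean in each role, AXIN2, DVL1 to DVL3, and up to 6 called pathway genes with the largest change in WWOX cells and in WFPA against EV cells; the others were named after their values were seen. The genes and lists were chosen with earlier results of these data known. The fit was tested on simulated data. Arrays with the same replicate number did not deviate together (correlations of their deviations -0.0521 to 0.0348). Those with different numbers gave -0.0891 to 0.0847. This does not show how the samples were prepared, and the main fit used no pairing. Alternatives are given in the closing section. Figures were drawn with matplotlib 3.10.9. The number of arrays limits the precision.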

Additional observations from a re-analysis of the deposited data

Results flagged for a closer look

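For several genes WWOX cells and WFPA cells differed in their distance from EV cells, as tested by limma in WWOX against WFPA cells. LRP4 differed by 3.13 on the log2 scale and WNT5A by -2.56. Of the further pathway genes DAAM2 differed by 3.58, NFATC2 by 3.20, TWIST1 by 2.58, DACT1 by 2.33 and MITF by 2.03, and CLDN1 by -2.75 and PLCB4 by -2.59. WFPA cells were also called lower than EV cells for LRP4 and DACT1, and higher for WNT5A and NFATC2.

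Some probe sets that did not stand for their gene were called higher than in EV cells where the chosen ones were not. There SFRP1 was 3.80 higher in WWOX cells and WNT2B 1.03 higher in WFPA cells. The cause was not tested.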

How the results depend on the processing

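The Wnt gene counts at the main settings were 2 (WWOX against the mean of EV and WFPA), 1 (against EV), 2 (against WFPA) and 3 (WFPA against EV), and those of the further pathway genes 11, 11, 11 and 4. Quantile normalization, median centring and limma-trend kept each Wnt count. With the replicate number as a block the counts were 2, 1, 2 and 3 and 11, 11, 11 and 4, and the block changed no call of a named gene. With no fold limit they were 10, 8, 10 and 6 and 39, 26, 34 and 11. At the 4-fold limit they were 1, 0, 2 and 1 and 5, 5, 7 and 0. With Bonferroni adjustment they were 1, 1, 1 and 0 and 8, 7, 6 and 0. Without dim probe sets WNT5A was not tested, which left 1 called Wnt gene in each WWOX comparison. A plain 1-way model left 1 in WWOX against the mean of the others, and so did EV and WFPA as 1 group. With the probe set of largest variance WWOX against EV called 3 and WFPA against EV called 6 Wnt genes, the further genes of WWOX against WFPA were 18, and SFRP1 in WFPA against EV cells reversed, from 0.08 without a pass to -1.10. With the mean of all probe sets WWOX against EV called 2 Wnt genes, and WFPA against EV 2 further genes. The causes of these shifts beyond the construction of each setting were not tested.

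Without 1 array in turn the Wnt counts ranged from 2 to 2, 1 to 2, 2 to 2 and 2 to 3, and those of the further genes from 11 to 13, 11 to 12, 11 to 13 and 4 to 4. FZD1 was gained in WWOX against EV cells without EV replicate 1 or WWOX replicate 3. WNT10B was lost in WFPA against EV cells without EV replicate 1 or 3 or without any 1 of the WFPA arrays. Signals near or under the lower quartile, as for WNT5A in EV and WWOX cells, limit the size of a fold change.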
